A study of Homo sapiens with 4 samples.

Results

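The FOS, JUN and EGR transcription factors are the products of the classical immediate early genes, and 10 of them were examined here: FOS, FOSB, FOSL1, FOSL2, JUN, JUNB, JUND, EGR1, EGR2 and EGR3. They were chosen by symbol as the members of these families, and all 10 were found among the 25066 genes measured. Expression was measured by RNA sequencing of NUDUL1, a human cell line from a diffuse large B cell lymphoma of the germinal center B cell-like kind. The cells were a clone with doxycycline-inducible Cas9 that had been transduced with the thromboxane receptor Tbxa2r and sorted for the transduction marker. They then expressed a control sgRNA or an sgRNA against GNA13, which encodes the G protein subunit Gα13, with 1 sgRNA per genotype, so each genotype is a pool of edited cells and not a set of independent knockout lines. All 4 libraries (2 control, 2 labelled GNA13-deficient) came from cells treated for 24 h with 10 nM U46619, a stable analog of thromboxane A2 that activates this receptor, and there were no untreated cells. The comparison therefore asks how the genotypes differ under the agonist, not what the agonist does. The cells were treated in duplicate. The p values rest on the spread between these duplicates, pooled in part over genes of similar level, and that spread may be technical.

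JUN and FOS proteins are basic leucine zipper factors that bind DNA as dimers, together called AP-1. FOS proteins need a JUN partner, whereas JUN proteins can also pair with themselves or with ATF and CREB relatives. EGR proteins are zinc finger factors that bind GC-rich sites. In B cells, antigen receptor and G protein-coupled receptor signals raise many, but not all, of these genes within minutes. They act through MAP kinases and through serum response factor (SRF) and its cofactors. Most of the transcripts are short-lived, so cells sampled after a day of treatment are far from the first peak.

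Of the 10 genes, FOS and FOSL1 were higher and JUN and JUND lower in libraries labelled GNA13-deficient, and the other 6 did not pass the test. That is 4 of 10 genes in either direction (40%), beside 29.7% of the 16945 genes tested, and 2 in each direction (20%), beside 13.1% called higher and 16.6% called lower. The 10 genes are too few for these shares to set them apart from the background, and the result lies in which of them moved and which way. The test was limma on the log2 values with Benjamini-Hochberg adjustment over all genes tested and a threshold of 0.05, and all 10 genes passed its filter of a value above 0 in at least 2 libraries.

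The sequence before the transcription start is shown for the JUN family, because JUN and JUND fell while JUNB did not pass the test. It is also shown for EGR1, which held 2 matches to the CArG box, the site bound by SRF. Each is the 250 bases before a RefSeq start, 5′ to 3′ on the gene's strand, placed in GRCh37 at chr1:59249720-59249969 (minus strand) for JUN, chr19:18392433-18392682 (minus) for JUND, chr19:12902050-12902299 (plus) for JUNB and chr5:137800918-137801167 (plus) for EGR1. Capitals mark matches on either strand to TGACNTCA (the ATF/CREB-type AP-1 site), TGANTCA (an AP-1 site with any base in the middle), CCAAT (the NF-Y site) or the CArG box of SRF.
JUN: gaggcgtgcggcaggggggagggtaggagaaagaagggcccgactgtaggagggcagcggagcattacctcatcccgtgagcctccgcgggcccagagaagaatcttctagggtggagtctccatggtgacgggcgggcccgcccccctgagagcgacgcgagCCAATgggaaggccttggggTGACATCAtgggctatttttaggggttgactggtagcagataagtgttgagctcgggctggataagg
JUND: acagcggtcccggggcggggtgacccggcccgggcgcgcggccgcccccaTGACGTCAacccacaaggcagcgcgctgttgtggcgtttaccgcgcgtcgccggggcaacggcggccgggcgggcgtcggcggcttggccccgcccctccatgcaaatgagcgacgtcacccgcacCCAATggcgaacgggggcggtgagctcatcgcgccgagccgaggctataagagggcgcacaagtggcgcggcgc
JUNB: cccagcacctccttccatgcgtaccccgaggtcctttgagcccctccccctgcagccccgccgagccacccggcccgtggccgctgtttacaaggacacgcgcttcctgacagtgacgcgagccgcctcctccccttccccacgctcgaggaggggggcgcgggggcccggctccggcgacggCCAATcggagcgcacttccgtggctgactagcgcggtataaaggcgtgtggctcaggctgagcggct
EGR1: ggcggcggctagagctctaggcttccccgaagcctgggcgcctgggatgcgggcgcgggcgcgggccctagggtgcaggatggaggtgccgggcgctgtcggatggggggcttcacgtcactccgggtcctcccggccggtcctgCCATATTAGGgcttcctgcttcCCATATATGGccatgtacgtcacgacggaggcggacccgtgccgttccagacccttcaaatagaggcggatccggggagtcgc

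JUN held TGACATCA between 67 and 60 bases before its start, and JUND held TGACGTCA between 200 and 193 bases before its start, whereas JUNB held neither this site nor TGANTCA in its window. A TGACNTCA match was present in 6.87% of 35116 RefSeq promoter windows of the same length. CCAAT stood 83, 70 and 63 bases before the start of JUN, JUND and JUNB, respectively, counted from its last base, and in 32.0% of all windows. EGR1 held the CArG boxes CCATATTAGG (105 to 96 bases before the start) and CCATATATGG (83 to 74), and the most downstream of 3 EGR2 windows held CCATATATGG (71 to 62), a box found in 1.16% of windows. TATAAA, the TATA box, was found at FOS, FOSB and JUNB, as in 10.7% of windows. TGANTCA was found at none of the 8 genes searched and in 6.57% of all windows. Among the same 8 genes GCGNGGGCG, the EGR site, was found only at EGR1, and in 8.41% of all windows. FOSL1 had no window and EGR3 was left out of the search. Sequence farther than 250 bases before a start was not searched for any gene. These matches describe letters and are not evidence of binding in these cells.

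**Figure D1:**
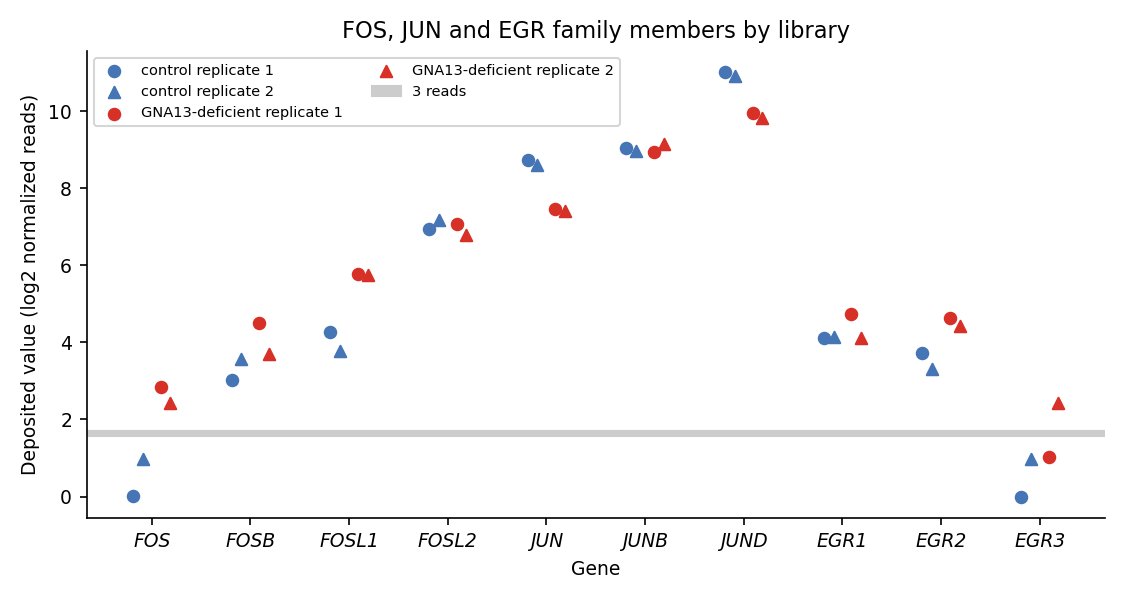
Deposited log2 normalized reads (vertical axis) of the 10 genes (horizontal axis) in each of the 4 libraries, with circles for replicate 1, triangles for replicate 2, blue for control and red for libraries labelled GNA13-deficient. The grey band is the value of 3 reads. JUN and JUND sit lower in both red libraries, FOS and FOSL1 higher, and FOS and EGR3 lie near the band.

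The JUN family was by far the most abundant of the 3 families, and it was split between genes that fell and 1 that stayed within the spread of the replicates. JUND, the broadly expressed JUN protein that is least dependent on stimulation, is a gene of 1 exon on chromosome 19 (18390504 to 18392432, minus strand, GRCh37). Its values were 11.01 and 10.90 in the control libraries and 9.94 and 9.81 in libraries labelled GNA13-deficient (log2 normalized reads), from 2032, 1948, 960 and 836 reads. Both libraries labelled GNA13-deficient lay at least 0.96 below the lower control library, whereas replicates of a genotype lay 0.11 and 0.13 apart. The difference was -1.08 ± 0.076 on the log2 scale (SE, n = 2 per genotype, 95% interval -1.28 to -0.88, limma adjusted p = 0.00181), which is 2.11-fold lower.

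JUN encodes c-Jun, the founding JUN family protein, whose own gene is a target of its dimers with ATF2. It is a gene of 1 exon on chromosome 1 (59242517 to 59249720, minus strand). JUN had log2 values of 8.74 and 8.59 in the control libraries and 7.47 and 7.42 in libraries labelled GNA13-deficient, from 420, 392, 173 and 159 reads. The genotypes did not overlap, with a gap of 1.12 between them against 0.15 and 0.054 between replicates. JUN was lower by a log2 difference of -1.22 ± 0.11 (SE, n = 2 per genotype, 95% interval -1.51 to -0.93, limma adjusted p = 0.00292), or 2.33-fold. JUN and JUND kept this call under every normalization, pseudocount and variance setting tried in which they were tested.

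JUNB, which can oppose JUN at shared sites, is a gene of 1 exon on chromosome 19 (12902300 to 12904129, plus strand). Its log2 values were 9.04 and 8.97 in the control libraries and 8.93 and 9.15 in libraries labelled GNA13-deficient, from 516, 510, 475 and 528 reads. The control libraries lay between the other 2, so the genotypes overlapped. The difference of 0.036 ± 0.10 (SE, n = 2 per genotype) had a 95% interval of -0.23 to 0.30 and a limma adjusted p of 0.837, and its sign turned to -0.013 when voom weights on the recovered reads were used. A fall as large as that of JUN or JUND lies outside this interval.

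JUND and JUNB are GC-rich, with 69.9% and 64.9% GC in the longest transcript, and both were in the highest of 10 equal bins of genes by GC content. The 1493 genes of that bin had a median difference of -0.14, against -0.02 over all genes tested, and 21.3% of them were called lower. JUN lay in bin 8, with a median of -0.02. The part of GC content in the JUND difference was not tested. JUNB lies within the annotated span of HOOK2 on the opposite strand, and the sources used here do not say whether reads were counted by strand, so the JUNB value is less certain than those of JUN and JUND, for which GENCODE annotates no overlapping gene.

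In the FOS family, FOSL1 and FOS were higher in libraries labelled GNA13-deficient, both from few reads, whereas FOSB and the more abundant FOSL2 did not pass the test. FOSL1 encodes FRA-1, a FOS protein without a strong activation domain that accumulates late after stimulation and under sustained ERK signaling. The gene has 4 exons on chromosome 11 (65659520 to 65668044, minus strand). FOSL1 had log2 values of 4.27 and 3.78 in the control libraries and 5.76 and 5.75 in libraries labelled GNA13-deficient, from 19, 14, 53 and 50 reads. The genotypes were 1.48 apart and the replicates 0.49 and 0.016 apart. FOSL1 was higher by 1.73 ± 0.32 on the log2 scale (SE, n = 2 per genotype, 95% interval 0.91 to 2.55, limma adjusted p = 0.0173), or 3.31-fold. From the summed reads, 103 against 33, the ratio under the deposited normalization was 3.28 with a 95% counting interval of 2.20 to 5.01. The call was lost without the filter on low values (adjusted p = 0.103).

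FOS encodes c-Fos, the founding member, whose transcript is among the least stable in the cell, and it was close to the limit of detection. The gene has 4 exons on chromosome 14 (75745529 to 75748933, plus strand). FOS had 1 and 2 reads in the control libraries and 7 and 5 reads in libraries labelled GNA13-deficient, or log2 values of 0.025, 0.98, 2.85 and 2.43. Both control libraries were under 3 reads and both others above it. The log2 difference was 2.13 ± 0.49 (SE, n = 2 per genotype, 95% interval 0.88 to 3.39, limma adjusted p = 0.0310). The ratio of 12 reads to 3 was 4.20 under the deposited normalization. Its 95% counting interval was 1.13 to 23.2, so the size of the change is poorly fixed. FOS lost its call in 4 of 10 alternative settings: without the filter (adjusted p = 0.130), with a pseudocount of 1 (0.0621), without the variance trend (0.0616) and with voom weights (0.123).

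FOSB, a close relative of FOS with 4 exons on chromosome 19 (45971253 to 45978437, plus strand), was not called. FOSB had log2 values of 3.02 and 3.56 in the control libraries and 4.50 and 3.69 in libraries labelled GNA13-deficient, from 8, 12, 22 and 12 reads. The genotypes did not overlap, but the gap of 0.13 was smaller than the 0.54 and 0.81 between replicates. The difference was 0.80 ± 0.45 (SE, n = 2 per genotype, 95% interval -0.38 to 1.98, limma adjusted p = 0.257). FOSB lies within the annotated span of ERCC1 on the opposite strand, and reads from the 2 genes cannot be told apart if strand was not used.

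FOSL2 encodes FRA-2, the other FOS protein without a strong activation domain, from 4 exons on chromosome 2 (28615315 to 28640184, plus strand). Its log2 values were 6.93 and 7.17 in the control libraries and 7.06 and 6.79 in libraries labelled GNA13-deficient, from 120, 146, 130 and 103 reads. The genotypes overlapped, and the difference was -0.12 ± 0.19 (SE, n = 2 per genotype, 95% interval -0.60 to 0.36, limma adjusted p = 0.664). Its sign was not stable, at 0.28 after quantile normalization and 0.085 after centring each library on its median. A rise as large as that of FOSL1 lies outside the interval. Annotated noncoding genes overlap FOSL2 on both strands.

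**Figure D2:**
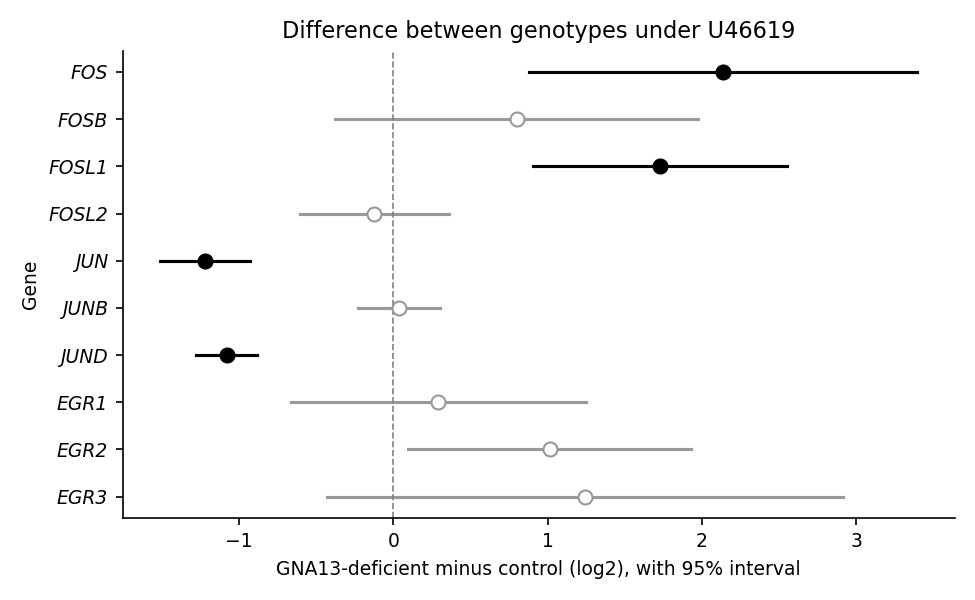
Difference between genotypes on the log2 scale (horizontal axis, GNA13-deficient minus control) for each of the 10 genes (vertical axis), with lines for the 95% interval from limma. Filled black points have an adjusted p under 0.05, open grey points do not. The intervals of JUN and JUND are short and lie below 0, those of FOS and FOSL1 are longer and lie above it, and the interval of EGR3 is the widest, from -0.43 to 2.92.

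No EGR gene passed the test, although the 3 estimates were above 0. EGR1, the family member most often used to report receptor signaling, has 2 exons on chromosome 5 (137801168 to 137804992, plus strand). EGR1 had log2 values of 4.11 and 4.15 in the control libraries and 4.74 and 4.11 in libraries labelled GNA13-deficient, from 17, 18, 26 and 16 reads. The second of the libraries labelled GNA13-deficient lay just under both controls, so the genotypes overlapped. The difference was 0.29 ± 0.37 (SE, n = 2 per genotype, 95% interval -0.66 to 1.25, limma adjusted p = 0.599), and it was -0.025 without the first library labelled GNA13-deficient.

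EGR2, which in lymphocytes is known for restraining activation, has 2 exons on chromosome 10 (64571756 to 64578927, minus strand) and showed the clearest separation of the 3. EGR2 had log2 values of 3.73 and 3.30 in the control libraries and 4.62 and 4.43 in libraries labelled GNA13-deficient, from 13, 10, 24 and 20 reads. Both libraries labelled GNA13-deficient were above both controls, with a gap of 0.70 against 0.43 and 0.20 between replicates. The difference was 1.01 ± 0.35 (SE, n = 2 per genotype, 95% interval 0.097 to 1.93), with an unadjusted p of 0.0362 and an adjusted p of 0.0936 from limma. It was called in 3 of 10 alternative settings: a pseudocount of 10, quantile normalization and median centring. The ratio of 44 reads to 23 was 2.01 under the deposited normalization (95% counting interval 1.19 to 3.48). A noncoding gene annotated on the same strand overlaps EGR2.

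EGR3, a target of NFAT in lymphocytes with 2 exons on chromosome 8 (22545172 to 22550993, minus strand), was barely detected. A noncoding gene annotated on the opposite strand overlaps EGR3. EGR3 had 0 and 2 reads in the control libraries and 2 and 5 in libraries labelled GNA13-deficient, or log2 values of 0, 0.98, 1.04 and 2.43. The genotypes were only 0.060 apart, against 0.98 and 1.39 between replicates. The difference was 1.24 ± 0.65 (SE, n = 2 per genotype, 95% interval -0.43 to 2.92, limma adjusted p = 0.220). The ratio of 7 reads to 2 was 3.67 under the deposited normalization (95% counting interval 0.700 to 36.3). Both a fall and a large rise remain possible at this depth.

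In all, 7 of the 10 genes showed no overlap between genotypes, 5 of them above (FOS, FOSB, FOSL1, EGR2, EGR3) and 2 below (JUN, JUND). Such separation is common here, since 65.3% of all genes tested showed it, 31.3% above and 34.0% below, so it adds little to the tests. The median difference of the 10 genes was 0.55, against -0.02 over all genes tested. It lay between the estimates of EGR1 (0.29) and FOSB (0.80), neither of which was called. The genes with the most reads, JUND, JUN and JUNB, differed by -1.08, -1.22 and 0.036, so the median does not describe them.

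Levels were compared between genes only per length, as RPKM, which scales reads to the length of the longest annotated transcript and to the mapped reads of the library. In the control libraries the order was JUND (36.1 and 32.0 RPKM), JUNB (9.65 and 8.84), JUN (4.41 and 3.82), FOSL2 (0.612 and 0.690), FOSL1 (0.382 and 0.261), EGR1 (0.186 and 0.182), EGR2 (0.141 and 0.101), FOSB (0.0726 and 0.101), FOS (0.0163 and 0.0301) and EGR3 (0 and 0.0140). The ranges of neighbours in this order did not overlap except for EGR2 and FOSB. FOSL1 and EGR1 lay closer together (0.261 against 0.186 RPKM at the nearest) than the 2 FOSL1 replicates did, so they do not differ beyond their spread, and FOS and EGR3 had reads too few to rank them, at 0 to 2 in each control library.

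In the libraries labelled GNA13-deficient the order of the 3 JUN genes was the same, with JUND at 16.5 and 14.6 RPKM, JUNB at 8.61 and 9.72, and JUN at 1.76 and 1.64. FOSL1 (1.03 and 0.990) now stood above FOSL2 (0.642 and 0.517). Below them stood EGR2 (0.252 and 0.214), EGR1 (0.275 and 0.172), FOSB (0.193 and 0.107) and FOS (0.110 and 0.0801). Each neighbouring pair of these overlapped, whereas EGR2 lay above FOSB and FOS, and EGR1 above FOS, in both libraries. EGR3 (0.0147 and 0.0373) was last. Only JUND, JUNB and JUN reached a mean of 1 RPKM or more over the 4 libraries. The order between genes depends on the transcript taken for the length: with the shortest annotated one, 393 bases for FOSL2 against 6713 for the longest, FOSL2 averaged 10.5 RPKM, next after JUND (95.7) and above JUNB (9.21), JUN (3.32) and FOSL1 (1.94), and FOSL2 (11.0 and 8.83) stayed above FOSL1 (3.01 and 2.88) in libraries labelled GNA13-deficient. Which transcripts these cells use was not tested, and differences of 1 gene between libraries do not depend on this choice.

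**Figure D3:**
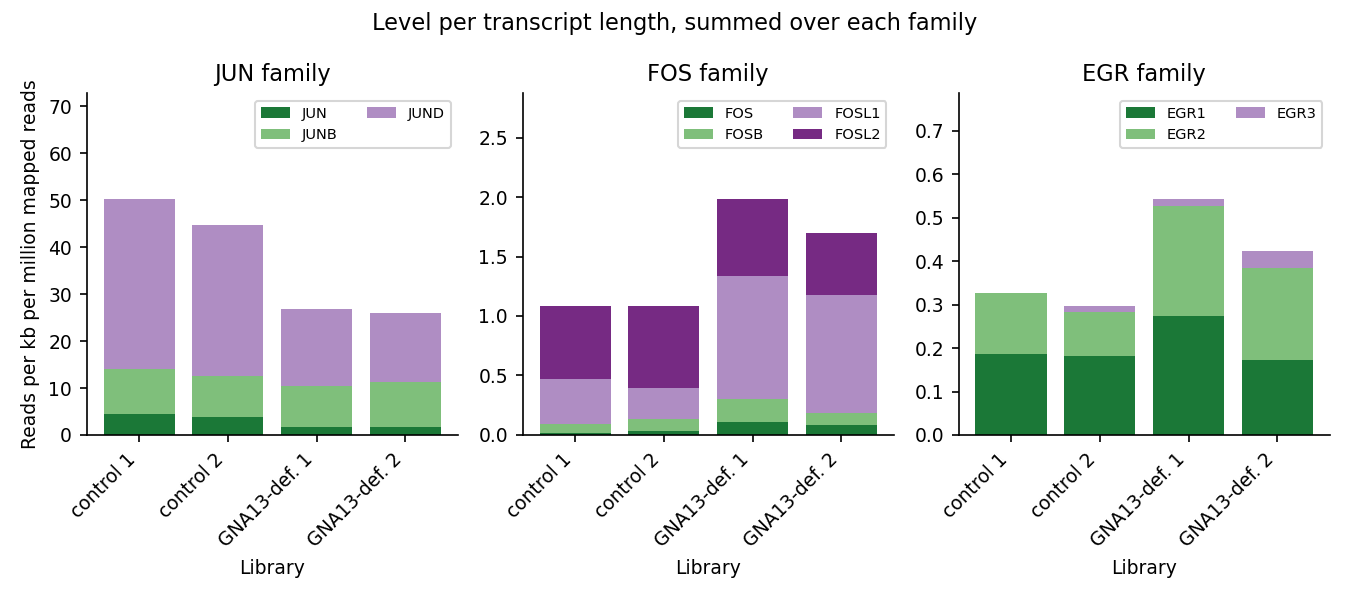
Stacked bars of RPKM (vertical axis, with its own scale in each panel, starting at 0) for the JUN, FOS and EGR families in the 4 libraries (horizontal axis), with a color for each gene. The JUN bars shrink mainly through JUND, from 32.0 RPKM or more to 16.5 or less, and with this length, that of the longest transcript, the FOS bars grow mainly through FOSL1.

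Summed over each family, JUN transcripts made up 50.1 and 44.7 RPKM in the control libraries and 26.9 and 26.0 in libraries labelled GNA13-deficient. FOS transcripts summed to 1.08 in each control library and to 1.98 and 1.69 in the others, and EGR transcripts to 0.327 and 0.296 against 0.542 and 0.423. JUN transcripts thus outnumbered FOS transcripts 46.3-fold and 41.3-fold in the control libraries, but 13.6-fold and 15.3-fold in libraries labelled GNA13-deficient. With the shortest transcript these ratios were 12.6 and 10.2 against 4.59 and 5.19, so the excess of JUN transcripts and its order between genotypes stayed while its size fell, and the FOS sums overlapped (12.2 and 13.5 against 16.2 and 13.1 RPKM). These sums are descriptions without a test, since an exact permutation test of 2 libraries against 2 cannot give a p below 0.333.

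The makeup of each family shifted with its members. JUND made up 71.9% and 71.7% of JUN family RPKM in the control libraries and 61.4% and 56.2% in those labelled GNA13-deficient, while the share of JUNB was 19.3% and 19.8% against 32.0% and 37.4%. JUN itself was a small part of the family, at 8.81% and 8.54% against 6.55% and 6.33%. FOSL2 was the main FOS transcript in the control libraries, at 56.5% and 63.8%, and FOSL1 in libraries labelled GNA13-deficient, at 52.2% and 58.4%. With the shortest transcript FOSL2 was the main one in every library (85.8% and 87.6% against 67.8% and 67.5%), and the share of FOSL1 was 9.15% and 5.65% against 18.6% and 22%. By the longest transcript, FOS made up at most 5.58% of its family in any library. EGR1 and EGR2 shared most of the EGR signal in every library, with EGR1 at 40.6% to 61.4%.

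The partners and regulators of these factors were then examined in 6 lists of 113 entries (110 genes, 96 of them tested). Among 13 tested bZIP partners of AP-1, 3 were higher and 3 lower (23.1% each, beside 13.1% and 16.6% of all genes), with a median difference of -0.13. BATF3, a leucine zipper protein that pairs with JUN proteins and lacks an activation domain, had log2 values of 3.35 and 4.30 in the control libraries and 6.10 and 5.96 in those labelled GNA13-deficient (difference 2.21 ± 0.41, SE, n = 2 per genotype, limma adjusted p = 0.0179). CREB5, a CRE-binding factor that can pair with JUN, had 8.38 and 8.34 against 6.54 and 6.63 and was lower by -1.78 ± 0.13 (limma adjusted p = 0.00182). JDP2, a repressor that dimerizes with JUN proteins, was higher by 0.61 ± 0.14 (limma adjusted p = 0.0326), and MAFK, a small MAF protein, was lower by -0.64 ± 0.082 (limma adjusted p = 0.00654).

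None of the 4 EGR relatives and cofactors passed the test in limma, beside 29.7% of all genes tested. EGR4, the remaining EGR gene, had log2 values of 4.42 and 4.30 against 5.29 and 5.50, from 21, 20, 38 and 42 reads. The genotypes did not overlap, and the difference of 1.03 ± 0.29 (SE, n = 2 per genotype) had a limma adjusted p of 0.0534 and was called in 8 of 10 alternative settings. The EGR corepressors NAB1 (0.13, limma adjusted p = 0.404, but 0.34 and 0.0447 after median centring) and NAB2 (0.038, 0.850) did not pass, nor did WT1, a zinc finger factor with a similar site, at 2, 3, 1 and 7 reads (0.18, 0.924). The sign of NAB2 turned to -0.012 with voom weights.

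Of SRF and its 5 cofactors in the list, 2 were higher and 1 lower (33.3% and 16.7%, beside 13.1% and 16.6% of all genes). With 6 genes, these shares do not set the list apart from the background. SRF itself differed by 0.087 ± 0.051 (SE, n = 2 per genotype, limma adjusted p = 0.267), and was called after median centring (0.30, adjusted p = 0.0177). The ternary complex factors, which carry ERK signals to SRF, moved in different directions. Their action at the CArG matches printed above for EGR1 was not tested. ELK1 had log2 values of 10.76 and 10.87 in the control libraries and 11.30 and 11.39 in those labelled GNA13-deficient, and was higher by 0.53 ± 0.067 (limma adjusted p = 0.00634). ELK3 had 8.79 and 8.87 against 7.33 and 7.45, and was lower by -1.44 ± 0.11 (limma adjusted p = 0.00205). ELK4 differed by 0.065 (limma adjusted p = 0.691). Of the MRTF coactivators, which respond to actin and RhoA, MKL2 was higher by 0.28 ± 0.074 (limma adjusted p = 0.0471) and MKL1 was not called (0.10, 0.261) except after median centring (0.31, 0.0237).

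Among 22 tested MAP kinases, MAP kinase kinases and RSK kinases, 4 were higher and 6 lower. These are 18.2% and 27.3%, beside 13.1% and 16.6% of all genes, with a median difference of -0.01. MAPK13, a p38 kinase, had log2 values of 6.09 and 6.04 against 3.62 and 3.10 and was lower by -2.70 ± 0.33 (SE, n = 2 per genotype, limma adjusted p = 0.00581). MAP2K1, the ERK kinase MEK1, was lower by -0.76 ± 0.060 (limma adjusted p = 0.00221), and so was MAP2K5, which activates ERK5, by -0.68 ± 0.082 (limma adjusted p = 0.00555). RPS6KA3, the ERK-activated kinase RSK2, was higher by 0.61 ± 0.066 (limma adjusted p = 0.00417).

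**Figure D4:**
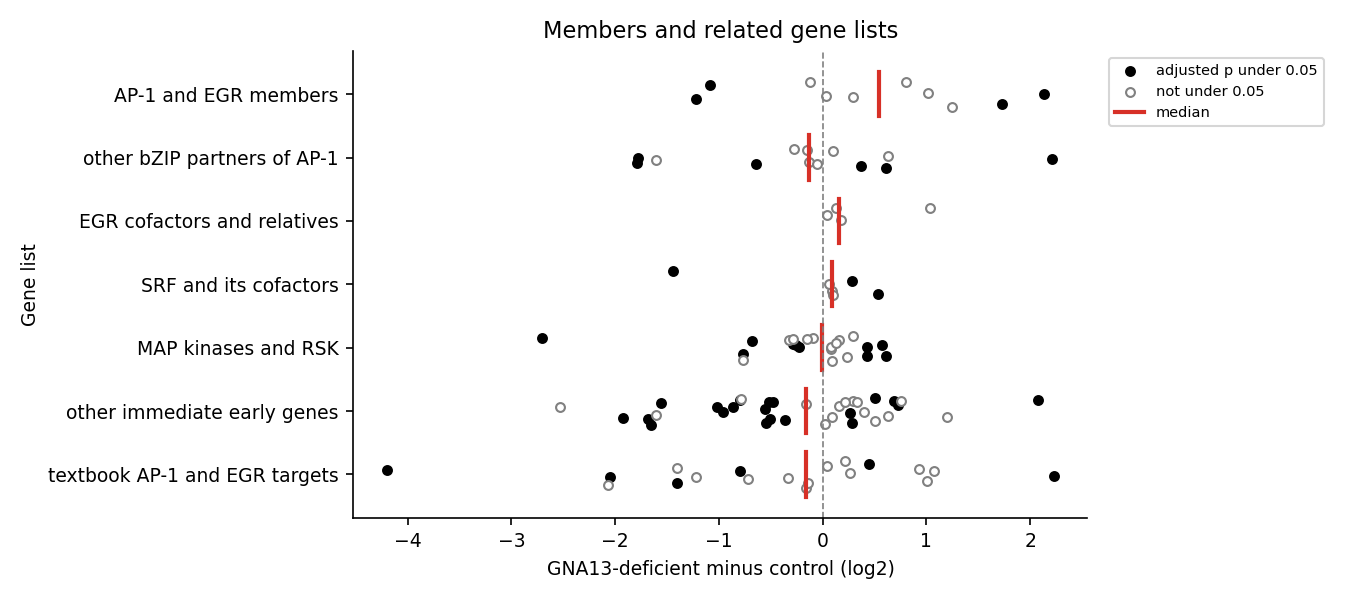
Difference between genotypes on the log2 scale (horizontal axis, GNA13-deficient minus control) for every tested gene of the 10 and of the 6 related lists (vertical axis). Filled points have an adjusted p under 0.05, open points do not, and the red bar is the median of a list. Every list with called genes has them on both sides of 0, and TIMP1, at -4.20, lies farthest out.

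Of 35 tested immediate early genes outside the FOS, JUN and EGR families, 6 were higher and 14 lower (17.1% and 40%, beside 13.1% and 16.6% of all genes), with a median difference of -0.16. MAFF and ATF3 are counted both here and among the bZIP partners. The all-gene shares given beside each list include genes of low level. With a filter at the median level, 2229 of 8473 genes were called higher and 1854 lower. The 6 lists together then had 19 of 58 tested genes called higher and 19 called lower. KLF2, a zinc finger factor of quiescent lymphocytes, had log2 values of 10.22 and 10.11 in the control libraries and 8.50 and 8.52 in those labelled GNA13-deficient, and was lower by -1.65 ± 0.076 (SE, n = 2 per genotype, limma adjusted p = 0.000991). ID2, an inhibitor of helix-loop-helix factors, was lower by -1.93 ± 0.064 (10.66 and 10.72 against 8.76 and 8.78, limma adjusted p = 0.00068). PER1, a component of the circadian clock, was lower by -1.69 ± 0.11 (8.72 and 8.71 against 7.08 and 6.98, limma adjusted p = 0.00162). DUSP6, the ERK phosphatase that is itself induced by ERK signaling, went the other way and was higher by 2.08 ± 0.098 (7.24 and 7.33 against 9.34 and 9.39, limma adjusted p = 0.00102).

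Of 19 tested textbook targets of AP-1 or EGR factors, 2 were higher and 4 lower. These are 10.5% and 21.1%, beside 13.1% and 16.6% of all genes, with a median difference of -0.16. TIMP1, an inhibitor of matrix metalloproteinases, had 111 and 161 reads in the control libraries and 12 and 4 in those labelled GNA13-deficient, and was lower by -4.20 ± 0.58 on the log2 scale (SE, n = 2 per genotype, limma adjusted p = 0.00775). PLAUR, the urokinase receptor, was lower by -2.05 ± 0.39 (limma adjusted p = 0.0192), and so was PLAU, urokinase itself, by -1.40 ± 0.29 (limma adjusted p = 0.0240). SPP1, the secreted phosphoprotein osteopontin, had log2 values of 6.87 and 6.72 against 8.98 and 9.07 and was higher by 2.23 ± 0.12 (limma adjusted p = 0.00114). Several entries of this list, among them MMP1, MMP3 and PTGS2, had no reads in any library. Of the genes called from the 6 lists and named here, BATF3, JDP2, MAFK, ELK1, MKL2, MAPK13, MAP2K5, PLAU, PLAUR and TIMP1 lost their call when the filter on low values was dropped.

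Across all 4 libraries, the profile of FOSL1 was most closely matched by GDA (guanine deaminase), DMXL2 and CLEC17A, a lectin of B cells, out of 8473 genes at or above the median level. The root mean square distances between centred log2 profiles were 0.12, 0.13 and 0.16. Their log2 differences were 1.94, 1.68 and 2.02, beside 1.73 for FOSL1. With 4 libraries, this likeness mostly restates a difference between genotypes of similar size.

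The libraries held 29209544 to 31537955 mapped reads, so depth was close to equal. GNA13 itself, the targeted gene on chromosome 17 (63005407 to 63052858, minus strand), had log2 values of 12.46 and 12.45 in the control libraries and 13.10 and 13.11 in libraries labelled GNA13-deficient, so its mRNA was higher by 0.65 ± 0.051 (SE, n = 2 per genotype, limma adjusted p = 0.00214) where the label says deficient. Reads over a whole gene do not show an edit or the protein, and every direction above rests on the labels. The 5 B cell markers were high in all libraries (log2 12.70 to 14.33), and the 3 T cell markers had at most 1 read. Of the germinal center markers, MME was high while MEF2B had 3 to 11 reads, and BCL6 had 1692 and 1935 reads in the control libraries and 293 and 323 in the others. The 3 myeloid markers summed to 99 and 101 reads in the control libraries and 24 and 21 in the others, with LYZ at 83 and 83 against 11 and 17 and CD14 at 0 to 2 reads. PRDM1, a plasma cell marker, had 255 and 282 reads against 69 and 73. The part of such shifts in the results above was not tested. In bulk RNA of this cell line, fewer cells expressing a marker and less of its RNA per cell cannot be told apart.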

How the data were processed

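Per the labels and the methods of the study, RNA was made into stranded poly(A) libraries and reads were aligned to hg19 with STAR. HTSeq is named in the submitters' processing notes. The annotation, the use of strand and the method of normalization are not given in the sources used here. The authors deposited log2 values of normalized reads per gene, with 0 as the lowest, and mapped read totals on a linear scale. The deposited table held no other per-library columns.

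The log2 values were used as they stand. Low values step in whole reads: within 0.001 log2 units, 100% of values up to 400 reads were whole in every library, and 1 read is worth 0.984 to 1.08 on the linear scale. Counts recovered in this way summed to 99.997% to 100.001% of the mapped reads. They were used for reads, RPKM, ratios and voom only, and a value of 0 in the second control library can stand for 1 read. Read ratios were scaled by the worth of 1 read in the deposited values, not by mapped reads. Their intervals are exact binomial and cover counting error only. Replicates differed by more than sampling noise (chi-square per gene 11.4 and 11.7), so none was a duplicate.

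limma 3.58.1 in R 4.3.3 (lmFit, eBayes with a variance trend, genotype as the only term, 2 residual degrees of freedom) was fitted on 16945 genes above 0 in at least 2 libraries. The fit was also tested on simulated data, in which only genes with a mean of at least 10 reads were changed. That test therefore does not show how well changes in genes such as FOS are found. Gene positions, lengths and GC content were from GENCODE v44lift37 (GRCh37), and GC content was available for 88.1% of genes tested. RefSeq promoter windows, given in GRCh38, were placed in GRCh37 by exact unique match in Python 3.11.15. Of the 10 genes, 8 were searched: FOSL1 had no RefSeq window, and EGR3, on chromosome 8, was left out of the search.

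The 10 genes and the lists were chosen with earlier results of these data known. Named genes were all 10, every gene of a list of 8 or fewer, and otherwise the 4 largest called differences with a mean of at least 10 reads. The 3 genes most like FOSL1, the called gene with the largest difference and at least 10 reads in every library, and GNA13 completed them. MMP1, MMP3, PTGS2, MAFF and ATF3 were named after their values were seen. Alternatives were other filters, pseudocounts of 1 and 10, quantile normalization, median centring, the replicate number as a block, no variance trend, a robust prior, voom, the shortest transcript for RPKM, and leaving out each library.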

Additional observations from a re-analysis of the deposited data

How the results depend on the processing

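JUN and JUND stayed lower and called in every setting that kept all libraries and tested them (10 and 11 settings; log2 -1.26 to -1.01 and -1.13 to -0.87). With 2 of the 10 genes called higher at first, the count was 0 without the filter on low values (2 at an unadjusted p under 0.05), 0 with a filter at the median level (only JUNB and JUND tested, 0 unadjusted), and 1, FOSL1, with a pseudocount of 1, without the variance trend or with voom weights. The count called lower was 1 at the median filter, where JUN was not tested. Among other list genes, those called higher numbered 17, against 7 without the filter, 7 without the variance trend and 32 after median centring, and those called lower 28, against 14 without the filter. Genes at 1 RPKM or more numbered 3, against 5 with the shortest transcript. Over all genes, 5037 were called, against 1999 without the filter and 2718 without the trend. Median centring moved the median difference of all genes from -0.02 to 0.18 and the calls from 2218 higher and 2819 lower to 4311 and 1924, and against that shift JUN and JUND remained lower and FOSL2 turned to 0.085. Other turns of sign were FOSL2 at 0.28 (quantile normalization), JUNB at -0.013 and NAB2 at -0.012 (voom). The cause was not tested. Of the other named genes, BATF3, JDP2, ELK1 and MKL2 also lost their call without the variance trend, MKL2 with voom weights and PLAU after quantile normalization.

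Nothing in the labels or methods ties same-numbered libraries to each other, but they did deviate together (r = 0.45 across 8473 genes, which are not independent), and the replicate block left 2 genes called higher and 2 lower. Leaving out 1 library leaves 1 residual degree of freedom, and limma then called 0 genes in every count, so such refits cannot show which calls hold. At an unadjusted p under 0.05 it gave 1 to 2 of the 10 genes higher and 2 lower. Differences ranged from -1.29 to -1.15 for JUN, -1.15 to -1.01 for JUND, 1.48 to 1.97 for FOSL1 and 1.66 to 2.61 for FOS, and, for genes not called, 0.55 to 1.94 for EGR3 and 0.40 to 1.20 for FOSB. Signs turned for FOSL2 (-0.26 to 0.011), JUNB (-0.075 to 0.15), EGR1 (-0.025 to 0.61), NAB2 (-0.051 to 0.13), WT1 (-1.26 to 1.62) and ELK4 (-0.032 to 0.16). Depth limits FOS and EGR3, with at most 7 reads in any library.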
